A study of Homo sapiens with 8 samples.

Results

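The mitochondrial ribosome, or mitoribosome, is the machine that translates the few proteins encoded by the mitochondrial genome, and its protein components are products of nuclear genes with MRPL and MRPS symbols. All protein-coding genes of GENCODE release 44 with a symbol of MRPL or MRPS followed by a number were taken, with 1 gene of this pattern not reported here, where a transcript had a value in the deposited files. This gave 76 genes, 48 MRPL genes, named for the large subunit, and 28 MRPS genes, named for the small subunit, out of 35113 genes with a matched transcript, of which 19564 were protein-coding. The rule used gene names only and no measured value, but the members were chosen with earlier results of these data known. Groups below go by symbol, although the MRPS30 and MRPS18A proteins sit in the large subunit. MRPS36 is likewise counted by symbol, although its product is a subunit of the alpha-ketoglutarate dehydrogenase complex.

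Poly(A) RNA of 8 libraries from head-and-neck squamous carcinoma cell lines was sequenced to examine how cells change when they become resistant to cisplatin, a platinum drug that crosslinks DNA. HPV- resistant cells were a cisplatin-selected clone (SCC411) of UPCISCC89 (SCC89), a line without human papillomavirus, and HPV- parental cells were the same line before selection. HPV+ resistant cells were a cisplatin-selected clone (SCC35) of UDSCC2 (SCC2), a line that carries the virus, and HPV+ parental cells were UDSCC2 before selection. Each of the 4 groups had 2 libraries. All cells were grown in the same low-glucose medium with serum, and the clones were kept in medium without cisplatin once selected, according to the methods of the study. Each resistant group was 1 clone picked from 1 line, so what a single clone carried and what selection did cannot be told apart, nor can HPV status and the identity of the line. Whether both libraries of a group stem from separate cultures is stated in no source used here. The p-values therefore cover only how these libraries varied, which may be technical. In bulk RNA a smaller number of cells that express a gene and a lower amount of its RNA per cell cannot be told apart.

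Mitoribosomal proteins are made in the cytosol, imported into mitochondria and assembled on ribosomal RNAs that the mitochondrial genome encodes. The large subunit carries the peptidyl transferase centre and the exit tunnel beside the inner membrane, and the small subunit binds the mRNA and decodes it. Many of the proteins have counterparts in bacterial ribosomes, while others are specific to mitochondria and were added to the ribosome during evolution. The products of mitochondrial translation are subunits of the respiratory chain and of ATP synthase, so loss of single mitoribosomal proteins causes combined respiratory chain deficiency in humans.

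Nuclear genes of mitochondrial proteins often have short CpG-rich promoters with sites for NRF1, ETS factors such as GABPA, and YY1. The 150 bases upstream of the RefSeq start (GRCh38.p14) are shown for 5 members to show what these promoters look like. They are among the members with the smallest p in a comparison described here: MRPL47 and MRPS22 for HPV- cells, MRPL53 and MRPS24 for HPV+ cells and MRPL40 for the difference between the lines. Capitals mark the letters CCGGAAG, the core of an ETS site, on either strand.
MRPL47, chr3:179604639-179604788, minus strand: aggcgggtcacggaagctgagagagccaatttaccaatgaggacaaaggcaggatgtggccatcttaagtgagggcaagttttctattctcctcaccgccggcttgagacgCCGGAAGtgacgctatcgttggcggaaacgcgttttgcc
MRPS22, chr3:139343844-139343993, plus strand: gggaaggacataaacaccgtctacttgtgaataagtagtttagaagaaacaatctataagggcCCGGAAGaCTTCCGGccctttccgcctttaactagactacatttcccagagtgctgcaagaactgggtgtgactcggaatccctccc
MRPL53, chr2:74472681-74472830, minus strand: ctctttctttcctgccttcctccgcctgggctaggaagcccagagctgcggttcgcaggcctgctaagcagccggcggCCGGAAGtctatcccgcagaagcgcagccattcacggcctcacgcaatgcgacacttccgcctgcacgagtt
MRPS24, chr7:43869518-43869667, minus strand: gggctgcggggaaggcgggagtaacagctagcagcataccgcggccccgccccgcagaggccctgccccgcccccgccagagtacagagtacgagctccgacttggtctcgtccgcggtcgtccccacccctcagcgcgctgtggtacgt
MRPL40, chr22:19432395-19432544, plus strand: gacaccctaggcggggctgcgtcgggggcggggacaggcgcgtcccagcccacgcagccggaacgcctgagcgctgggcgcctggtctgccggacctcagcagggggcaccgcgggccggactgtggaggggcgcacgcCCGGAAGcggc
MRPS22 held the ETS letters on both strands at 87 and 79 bases before its start, while MRPS24 had none in this window. Of the 76 members, 68 had a promoter of 300 bases in the RefSeq table (250 before the start and 50 after it). CCGGAAG stood in 17 of 42 MRPL promoters (40.5%) and 11 of 26 MRPS promoters (42.3%), against 17.7% of 11292 promoters of the other genes tested and 10.7% of all 27305 promoters. The YY1 letters ATGGCGGC stood in 23.8% of MRPL and 34.6% of MRPS promoters, against 5.64% of those of the other genes tested and 3.21% of all. The NRF1 letters GCATGCGC were in 9.52% and 7.69% of MRPL and MRPS promoters (5.19% of other tested genes, 3.27% of all), and the E-box CACGTG was in 11.9% and 3.85% (9.81% and 7.43%). Both strands were read, and none of the 4 motifs contains another. These matches describe letters in a window, and no factor binding was measured.

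Read pairs assigned to transcripts numbered 20250246 to 27341284 per library. Transcripts of the mitochondrial genome took 4.996 and 3.24% of them in HPV- resistant libraries, against 1.71 and 1.99% in HPV- parental libraries, and 3.23 and 2.45% in HPV+ resistant libraries, against 2.83 and 2.13% in HPV+ parental libraries. All 9 squamous epithelial markers examined had reads in every group, and they summed to 3940 and 5080 CPM (counts scaled to the size of the library) in HPV- resistant libraries, against 22900 and 21300 CPM in HPV- parental libraries. In the HPV+ line they summed to 5270 and 4290 CPM in resistant libraries, against 3320 and 3440 CPM in parental libraries. The 6 fibroblast markers summed to 12.3 and 12 CPM in HPV- resistant libraries, against 4.7 and 4.73 CPM in HPV- parental libraries, with COL3A1 and DCN at 0 in all 4. In HPV+ cells they summed to 3220 and 1450 CPM in resistant libraries, against 3070 and 3380 CPM in parental libraries, of which COL3A1 was most. LUM was at 91.0 and 65.8 CPM in HPV+ resistant libraries, against 241 and 290 CPM in HPV+ parental libraries, and DCN at 43.6 and 20.0 CPM, against 99.4 and 119 CPM. PDGFRB was at 0 in the HPV+ line. The 4 leukocyte markers summed to 34.9 and 67.6 CPM in HPV- resistant libraries, against 156 and 152 CPM in HPV- parental libraries, and to 10.8 and 13.6 CPM in HPV+ resistant libraries, against 18.3 and 16.2 CPM in HPV+ parental libraries. Nearly all of this was CD68, while the defining marker PTPRC reached at most 0.18 CPM, and 3 endothelial markers summed to at most 0.454 CPM. The squamous sum was thus lower in HPV- resistant and higher in HPV+ resistant than in parental libraries, but single markers went both ways in each line. CDH1 was at 174 and 221 CPM in HPV- resistant libraries, against 87.8 and 108 CPM in parental ones. In the HPV+ line SFN was lower in resistant libraries, and so was KRT14, at 60.9 and 46.3 CPM, against 131 and 123 CPM. CD68 was lower in the resistant libraries of both lines, and LUM and DCN in those of the HPV+ line. The part of these cells or states in the results below was not tested.

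Levels between genes are compared in TPM, which divide the reads by transcript length and scale every library to the same total. The median of the 8 libraries was 89.9 TPM over the 47 MRPL genes tested and 59.7 TPM over the 28 MRPS genes, against 10.2 TPM over all 15221 genes tested. MRPL21, the counterpart of bacterial L21, had the highest median of all members, 253 TPM. It ranged from 771 to 1090 TPM in HPV- parental cells and from 116 to 135 TPM over the 4 HPV+ libraries, so its rank rested on the HPV- line. MRPL51 and MRPL41, both specific to mitochondria, followed with medians of 212 TPM (135 to 291 over the 8 libraries) and 204 TPM (130 to 363). MRPS24, the counterpart of bacterial S3 near the mRNA entry, was the highest MRPS gene with 203 TPM (96.8 to 307). The ranges of these 3 overlapped almost wholly, so their order is not firm. MRPS26 and MRPS15, the counterpart of S15, had 120 TPM (102 to 165) and 118 TPM (90.9 to 136). The lowest members with reads in every library were MRPL50 with 14.2 TPM (9.27 to 18), MRPS31 with 18.6 TPM (7.87 to 28.6) and MRPS17 with 22.3 TPM (19.9 to 32.8). MRPS31 overlapped with both of the others, while MRPL50 stayed below MRPS17 in every library.

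MRPL45, whose product anchors the mitoribosome to the inner membrane, was the only member that failed the filter on low counts. It had 6 read pairs in total and a level of 0 in 7 of 8 libraries, while MRPL45P2, a copy of it elsewhere on the genome, had 1.51 to 3.49 CPM. Of the reads assigned to MRPL45 and its copies, 98.7% were on the copies. The level of MRPL45 is therefore uncertain. Copies named as pseudogenes of a member were present for 36 members, 79 in all, and took over 5% of the reads only for MRPL45 and for MRPS31 (31.6%, on 5 copies), so values of MRPS31 depend on how shared reads were divided.

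Together the members took a smaller share of the transcriptome in both resistant clones than in their parental lines. Their summed TPM was 0.514 and 0.604% of the total in HPV- resistant libraries, against 0.907 and 0.797% in HPV- parental libraries. In the HPV+ line it was 0.568 and 0.582% in resistant libraries, against 0.709 and 0.707% in parental libraries. The groups did not overlap in either line, and the gap was wider in the HPV- line. The gap was also wider for the MRPL sum than for the MRPS sum. MRPL genes summed to 3585 and 4283 TPM in HPV- resistant libraries and to 6789 and 5800 TPM in HPV- parental libraries, and MRPS genes to 1553 and 1752 TPM against 2278 and 2165 TPM. Without MRPL21 the MRPL sums were 3214 and 3840 TPM in HPV- resistant libraries, against 5701 and 5028 TPM in HPV- parental libraries. The ratio of the MRPL sum to the MRPS sum was 2.31 and 2.44 in HPV- resistant cells, against 2.98 and 2.68 in HPV- parental cells, and 2.28 and 2.16 in HPV+ resistant cells, against 2.41 and 2.36 in HPV+ parental cells.

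**Figure D1:**
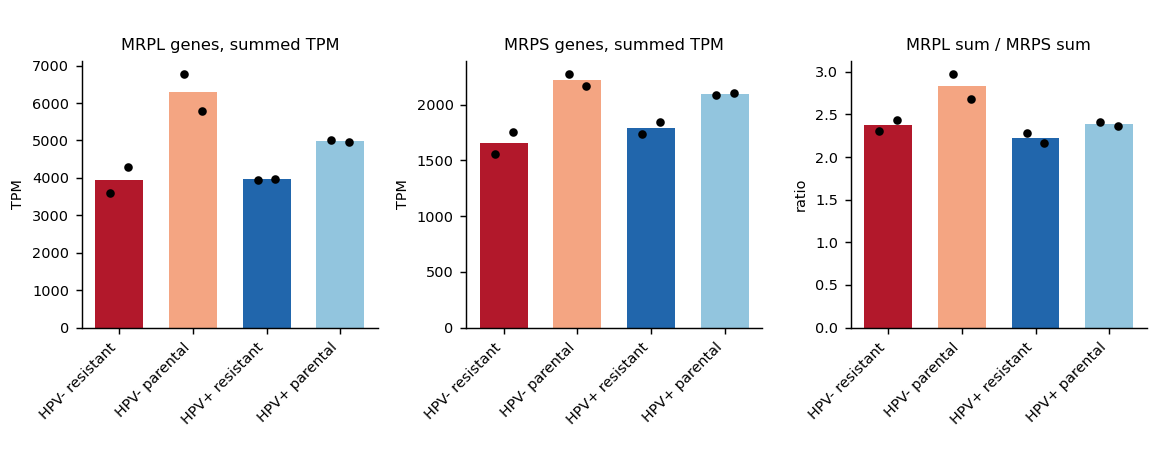
Summed TPM of the MRPL genes (left) and MRPS genes (middle) and the ratio of both sums (right) in each group. Bars are means of 2 libraries and points are libraries: both resistant libraries lay below both parental libraries in every panel, with MRPL sums of 3585 and 4283 TPM in HPV- resistant cells against 6789 and 5800 TPM in HPV- parental cells.

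Levels of 1 gene between groups are given below in CPM scaled by TMM factors, and tests are edgeR's quasi-likelihood test over all 15221 genes with Benjamini-Hochberg adjustment, where a gene passed at an adjusted p under 0.05. In HPV- resistant cells against HPV- parental cells, 34 of 47 MRPL genes tested were lower and 0 were higher, and 14 of 28 MRPS genes were lower and 0 were higher. Over all genes tested, 14.1% were lower and 12.8% higher. No member was higher at an unadjusted p under 0.05 in edgeR either, and DESeq2 also called 0 higher. The median log2 fold change was -0.74 for MRPL and -0.46 for MRPS genes, against 0.04 for all genes tested. With a log2 fold change beyond 1 added, 10 MRPL and 3 MRPS genes were lower (21.3 and 10.7% of those tested), against 5.22% of all genes. Both resistant libraries lay below both parental libraries for 40 MRPL genes (85.1%) and 23 MRPS genes (82.1%), against 28.5% of all genes.

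Among MRPL genes, MRPL13 (chr8:120380761-120445402, GRCh38), the counterpart of bacterial L13, had the smallest p. It was at 70.8 and 70.4 CPM in HPV- resistant libraries and at 219 and 159 CPM in HPV- parental libraries (log2 fold change -1.42, standard error 0.17, adjusted p = 0.000406, edgeR). The resistant libraries were nearly alike and well below both parental ones, which differed from each other. MRPL47 (chr3:179588285-179604649), the counterpart of L29 at the mouth of the exit tunnel, was at 35.8 and 40.0 CPM, against 93.7 and 79.1 CPM in parental libraries (-1.19, standard error 0.15, adjusted p = 0.000533, edgeR). MRPL3 (chr3:131462212-131502983), whose bacterial counterpart L3 reaches toward the peptidyl transferase centre, was at 101 and 115 CPM, against 227 and 228 CPM (-1.07, standard error 0.14, adjusted p = 0.000662, edgeR). For MRPL47 and MRPL3 the gap between the groups was larger than any gap within a group. MRPL21 (chr11:68891276-68903835) was at 146 and 176 CPM in HPV- resistant libraries, against 541 and 317 CPM in HPV- parental libraries (-1.41, standard error 0.23, adjusted p = 0.00228, edgeR). Its parental libraries were far apart, yet both exceeded both resistant libraries. MRPL12, the stalk protein that contacts translation factors, and MRPL36, the counterpart of bacterial L36, had log2 fold changes of -1.33 and -1.12. MRPL10, which holds the MRPL12 stalk, had a value of 0.07 and was the only MRPL gene with a positive one.

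Among MRPS genes, MRPS28 (chr8:79918717-80030289), the counterpart of bacterial S1, was at 33.4 and 33.3 CPM in HPV- resistant libraries and at 107 and 69.6 CPM in HPV- parental libraries (log2 fold change -1.40, standard error 0.19, adjusted p = 0.000871, edgeR). MRPS22 (chr3:139005806-139360497), a protein specific to mitochondria and mutated in mitochondrial disease, was at 51.4 and 53.9 CPM, against 93.7 and 96.1 CPM (-0.85, standard error 0.13, adjusted p = 0.00155, edgeR). Replicates of MRPS22 lay close together in both groups, while the parental libraries of MRPS28 did not. Values of MRPS22 rest on 14 of its 25 annotated transcripts. MRPS17, the counterpart of bacterial S17, was at 27.9 and 29.9 CPM, against 54.3 and 46.9 CPM (-0.81, standard error 0.15, adjusted p = 0.00321, edgeR). MRPS23, specific to mitochondria, was at 43.7 and 55.2 CPM, against 121 and 84.8 CPM (-1.06, standard error 0.20, adjusted p = 0.00386, edgeR). MRPS18C, 1 of 3 human counterparts of bacterial S18, was at 22.9 and 27.8 CPM, against 80.6 and 40.7 CPM (-1.26, standard error 0.28, adjusted p = 0.0119, edgeR). Its homologues MRPS18A and MRPS18B had log2 fold changes of -0.32 and -0.23 and did not pass.

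The 2 libraries of each HPV- group were not alike for these genes. HPV- parental replicate 1 exceeded replicate 2 for 40 of 47 MRPL genes (85.1%) and 19 of 28 MRPS genes, against 44.7% of all genes tested, with a median log2 difference of 0.34 for MRPL genes. HPV- resistant replicate 2 exceeded replicate 1 for 38 MRPL and 24 MRPS genes. Without HPV- parental replicate 1 the MRPL median was -0.56, and without HPV- parental replicate 2 it was -0.94. Without HPV- resistant replicate 1 it was -0.62, and 16 MRPL and 4 MRPS genes were lower, while calls of lower genes over all genes were 1051 in that fit and 2139 with all libraries. MRPS counts also fell without HPV+ parental replicate 2 and without either HPV+ resistant library, which are not part of this comparison. Those libraries enter through the shared estimate of spread, the scaling, the filter and the adjustment over the genes tested. In these fits the lone library is assumed to vary like the other groups. Of the 34 MRPL genes, 13 passed under every one of 17 alternatives, and of the 14 MRPS genes 4 did, namely MRPS17, MRPS22, MRPS23 and MRPS28. The 13 were MRPL3, MRPL9, MRPL12, MRPL13, MRPL15, MRPL21, MRPL36, MRPL39, MRPL40, MRPL42, MRPL47, MRPL52 and MRPL58, the last of which encodes a peptidyl-tRNA hydrolase built into the ribosome.

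**Figure D2:**
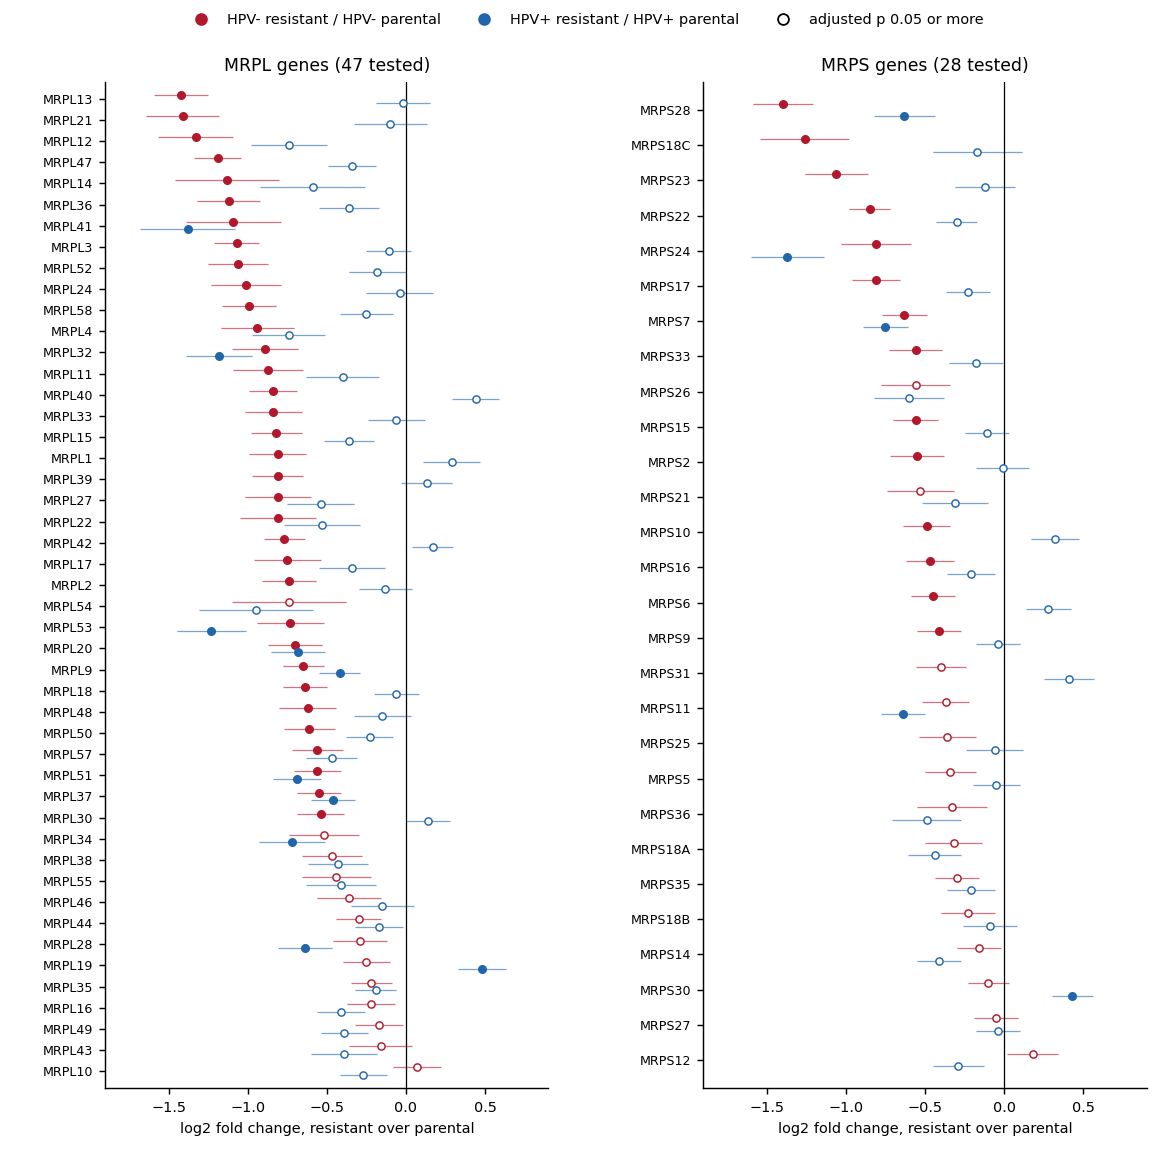
Log2 fold change (horizontal axis) with its standard error (bars) of each of the 47 MRPL genes (left) and 28 MRPS genes (right) tested, sorted by the HPV- value, HPV- resistant over HPV- parental in red above HPV+ resistant over HPV+ parental in blue. Filled points have an adjusted p under 0.05 (edgeR): 34 MRPL and 14 MRPS genes were lower in the HPV- line, and 9 and 4 in the HPV+ line.

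In HPV+ resistant cells against HPV+ parental cells fewer members passed. Of 47 MRPL genes 9 were lower (19.1%) and 1 was higher, and of 28 MRPS genes 4 were lower (14.3%) and 1 was higher, against 10.5% lower and 7.65% higher over all genes tested. The share of lower MRPS genes was thus near that of all genes. Beyond a log2 fold change of 1, 3 MRPL and 1 MRPS genes were lower (6.38 and 3.57%), against 4.6% of all genes. The median log2 fold change was -0.36 for MRPL and -0.20 for MRPS genes, against 0.00 for all genes tested. Both resistant libraries lay below both parental libraries for 34 MRPL genes (72.3%) and 15 MRPS genes (53.6%), against 34.3% of all genes.

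MRPL53 (chr2:74471982-74472687), a mitochondria-specific protein by the stalk of the large subunit, was at 16.6 and 11.2 CPM in HPV+ resistant libraries and at 34.2 and 31.0 CPM in HPV+ parental libraries (log2 fold change -1.23, standard error 0.22, adjusted p = 0.00468, edgeR). MRPL32 (chr7:42932376-42948958), which a mitochondrial AAA protease trims before it joins the subunit, was at 25.3 and 29.1 CPM, against 66.9 and 56.9 CPM (-1.18, standard error 0.21, adjusted p = 0.00546, edgeR). Both were well separated between the groups. MRPL51 was at 68.9 and 60.5 CPM, against 110 and 99.8 CPM (-0.69, standard error 0.15, adjusted p = 0.0114, edgeR). MRPL41 was at 35.3 and 38.6 CPM, against 114 and 77.9 CPM (-1.38, standard error 0.30, adjusted p = 0.0161, edgeR). The parental libraries of MRPL41 differed from each other by nearly as much as the lower of them did from the resistant ones. MRPS24 (chr7:43866558-43869893) was at 35.0 and 33.8 CPM in HPV+ resistant libraries, against 102 and 75.7 CPM in HPV+ parental libraries (-1.37, standard error 0.23, adjusted p = 0.00367, edgeR). MRPS7, whose bacterial counterpart S7 starts the assembly of the head of the small subunit, was at 62 and 60.3 CPM, against 107 and 98.4 CPM (-0.75, standard error 0.14, adjusted p = 0.00567, edgeR). MRPS11, the counterpart of S11 on the platform of the small subunit, was at 40.3 and 33.9 CPM, against 55.1 and 60.8 CPM (-0.64, standard error 0.14, adjusted p = 0.0136, edgeR), and MRPS28 at 19.1 and 21.9 CPM, against 31.5 and 31.9 CPM (-0.63, standard error 0.19, adjusted p = 0.0486, edgeR), a call lost in 12 of 17 alternatives. Only part of the MRPS11 reads, 42.9% in HPV+ resistant and 31.5% in HPV+ parental cells, were on protein-coding transcripts, and over those alone its log2 fold change was -0.20 and did not pass.

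The 2 higher genes had small changes near the threshold. MRPL19, the counterpart of bacterial L19 at the subunit interface, was at 89.3 and 80.1 CPM in HPV+ resistant libraries and at 58.6 and 62.9 CPM in HPV+ parental libraries (log2 fold change 0.48, standard error 0.15, adjusted p = 0.0494, edgeR). MRPS30 was at 79.1 and 82.9 CPM, against 57.2 and 62.6 CPM (0.43, standard error 0.13, adjusted p = 0.0463, edgeR). Neither gene's groups overlapped. The share of MRPS30 reads on protein-coding transcripts was 56.1% in HPV+ resistant cells and 73.2% in HPV+ parental cells, and over those transcripts alone its log2 fold change was 0.05. Both calls were lost when any 1 of the HPV+ libraries or of the HPV- resistant libraries was left out. The counts of lower genes also moved with single libraries. They were 1 to 3 for MRPL genes and 1 or 2 for MRPS genes when HPV+ parental replicate 1, HPV+ parental replicate 2 or HPV+ resistant replicate 2 was left out, and 3 for MRPL genes without HPV+ resistant replicate 1. Without HPV- parental replicate 1 or 2, whose spread enters the shared estimate, 15 and 18 MRPL genes and 7 and 8 MRPS genes were lower. Over all genes, lower calls numbered 1595 with all libraries, 407 to 724 without 1 HPV+ library, and 2208 and 2297 without HPV- parental replicate 1 or 2. The MRPL counts thus moved in the same direction as those of all genes. The MRPL median stayed between -0.39 and -0.30 in all 8 of these fits. MRPL53 and MRPS24 were the members that passed under every one of 17 alternatives.

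**Figure D3:**
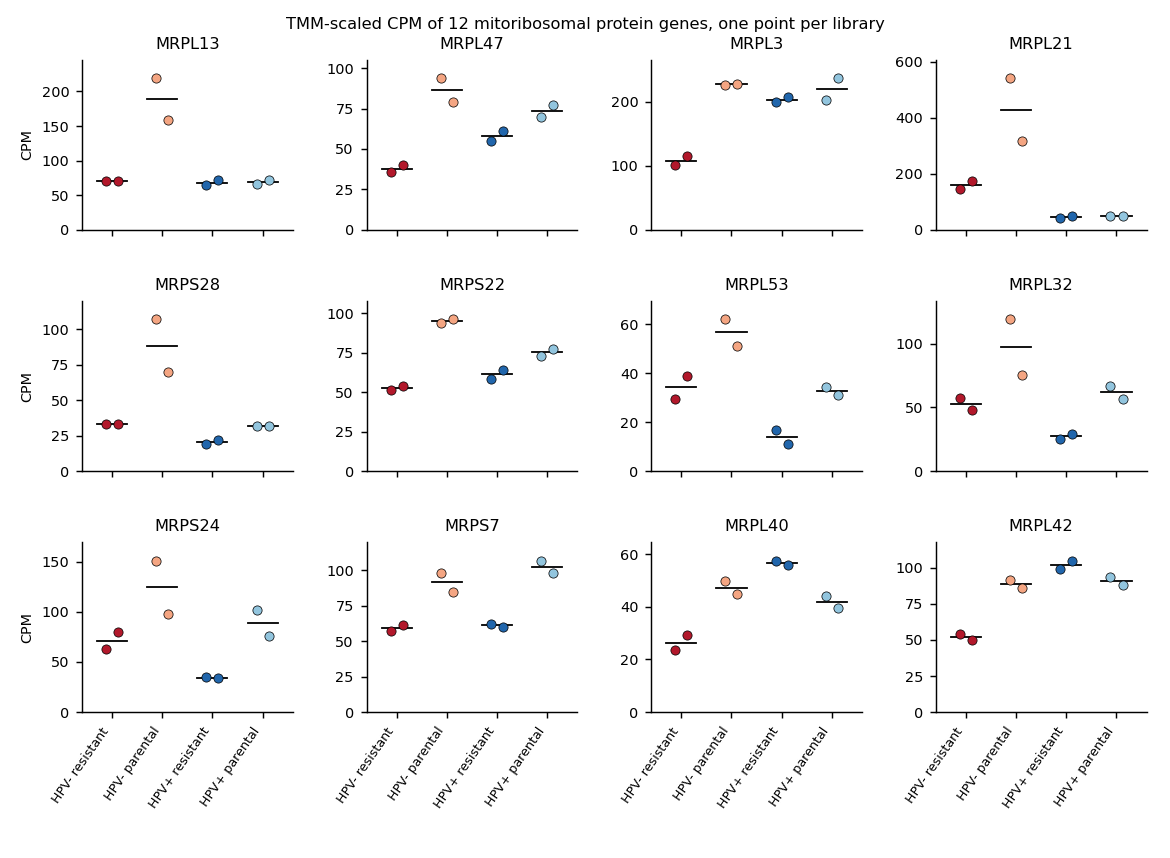
TMM-scaled CPM (vertical axis, from 0) of 12 members in each library (points, 2 per group) with the group mean (line). MRPL13, MRPL47, MRPL3 and MRPL21 were lower in HPV- resistant than in HPV- parental libraries, MRPL53, MRPL32, MRPS24 and MRPS7 were lower in the resistant libraries of both lines, and MRPL40 was at 57.6 and 55.8 CPM in HPV+ resistant libraries against 44 and 39.5 CPM in HPV+ parental libraries.

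Set side by side, 7 MRPL genes (MRPL9, MRPL20, MRPL32, MRPL37, MRPL41, MRPL51 and MRPL53) and 3 MRPS genes (MRPS7, MRPS24 and MRPS28) were lower in both resistant clones, and none passed in opposite directions. A further 27 MRPL and 11 MRPS genes were lower in the HPV- line alone, 2 MRPL genes (MRPL28 and MRPL34) and 1 MRPS gene (MRPS11) in the HPV+ line alone, and 10 and 12 passed in neither line. These joint counts were not made over all genes, so they do not show whether the members are unusual. Regardless of p, the fold change was negative in both lines for 40 of 47 MRPL and 23 of 28 MRPS genes, against 3934 of all 15221 genes. Passing in 1 line alone is no test of a difference between lines, so the difference of the resistance effects (HPV+ minus HPV-) was tested in the same fit. It was positive and passed for 11 of 47 MRPL genes (23.4%) and 4 of 28 MRPS genes (14.3%), and was negative and passed for 0 members, against 8.16% positive and 8.57% negative over all genes tested. At an unadjusted p under 0.05, 0 members were negative in edgeR, and DESeq2 also called 0. A difference beyond 1 was called for 4 MRPL and 0 MRPS genes (8.51 and 0.0%), against 5.17% of all genes. The median difference was 0.38 for MRPL and 0.29 for MRPS genes, against -0.03 for all genes. Across the 47 MRPL genes the fold changes of the lines had a Pearson correlation of 0.08 and a Spearman correlation of -0.01, and across the 28 MRPS genes 0.29 and 0.28. Over all 15221 genes they were 0.06 and 0.15. These are descriptions over genes that share the same 8 libraries.

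For this difference MRPL13 and MRPL40 had the smallest p, and they were the only members that passed it under every one of 16 alternatives. MRPL13 was at 64.9 and 71.6 CPM in HPV+ resistant libraries and at 66.9 and 71.7 CPM in HPV+ parental libraries, overlapping and close to its level in HPV- resistant cells (difference 1.40, standard error 0.23, adjusted p = 0.00334, edgeR). MRPL40, a protein of the central protuberance whose gene lies in the region of chromosome 22 deleted in DiGeorge syndrome (chr22:19432545-19436075), was at 23.6 and 29.3 CPM in HPV- resistant libraries, against 49.9 and 44.8 CPM in HPV- parental libraries. In the HPV+ line it was at 57.6 and 55.8 CPM in resistant libraries, against 44 and 39.5 CPM in parental libraries (difference 1.28, standard error 0.22, adjusted p = 0.00334, edgeR). The groups of MRPL40 were separated in opposite order in the 2 lines, though its HPV+ change of 0.44 did not pass on its own. MRPL42 was at 53.8 and 50.3 CPM, against 91.2 and 86.2 CPM, in the HPV- line and at 99.2 and 105 CPM, against 93.7 and 87.8 CPM, in the HPV+ line (difference 0.94, standard error 0.18, adjusted p = 0.00708, edgeR). MRPL1, the counterpart of the mobile L1 stalk protein, was at 13.0 and 14.7 CPM, against 25.8 and 22.7 CPM, in the HPV- line and at 22.3 and 21.9 CPM, against 16 and 20.1 CPM, in the HPV+ line (difference 1.10, standard error 0.25, adjusted p = 0.0149, edgeR). Both were far apart between the groups in the HPV- line, and close together without overlap in the HPV+ line. MRPL39, an exit tunnel protein, was at 20.8 and 24.2 CPM, against 41.2 and 37.4 CPM, in the HPV- line and at 19.7 and 19.5 CPM, against 17.6 and 18.3 CPM, in the HPV+ line (difference 0.93, standard error 0.22, adjusted p = 0.0175, edgeR). MRPL3, given above for the HPV- line, was at 200 and 207 CPM in HPV+ resistant libraries, against 203 and 237 CPM in HPV+ parental libraries (difference 0.96, standard error 0.20, adjusted p = 0.00874, edgeR).

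Among MRPS genes MRPS6, the counterpart of S6, came first by p. It was at 27.4 and 30.6 CPM, against 41.0 and 38.2 CPM, in the HPV- line and at 51.8 and 56.7 CPM, against 45.1 and 44.5 CPM, in the HPV+ line (difference 0.73, standard error 0.19, adjusted p = 0.0285, edgeR). MRPS10, the counterpart of S10, was at 51.9 and 57.8 CPM, against 69.2 and 85.4 CPM, in the HPV- line and at 85.9 and 77.8 CPM, against 61.8 and 69.6 CPM, in the HPV+ line (difference 0.81, standard error 0.22, adjusted p = 0.0289, edgeR). Both were separated in opposite order in the 2 lines. MRPS31, specific to mitochondria, was at 24.5 and 26.6 CPM, against 33.7 and 33.9 CPM, in the HPV- line and at 12.4 and 13.1 CPM, against 8.96 and 10.2 CPM, in the HPV+ line (difference 0.82, standard error 0.23, adjusted p = 0.0345, edgeR). MRPS23 was at 56.6 and 69.6 CPM in HPV+ resistant libraries, against 68.3 and 68.5 CPM in HPV+ parental libraries, which overlapped (difference 0.94, standard error 0.28, adjusted p = 0.0423, edgeR). Calls for MRPS genes fell to 0 without any 1 HPV+ library or without HPV- resistant replicate 1, and were 10 without HPV- parental replicate 2. Calls for MRPL genes were 3, 4, 7 and 5 without HPV+ parental replicate 1, HPV+ parental replicate 2, HPV+ resistant replicate 1 and HPV+ resistant replicate 2, and 5 when HPV- resistant replicate 1 was left out, but 22 when HPV- parental replicate 2 was.

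**Figure D4:**
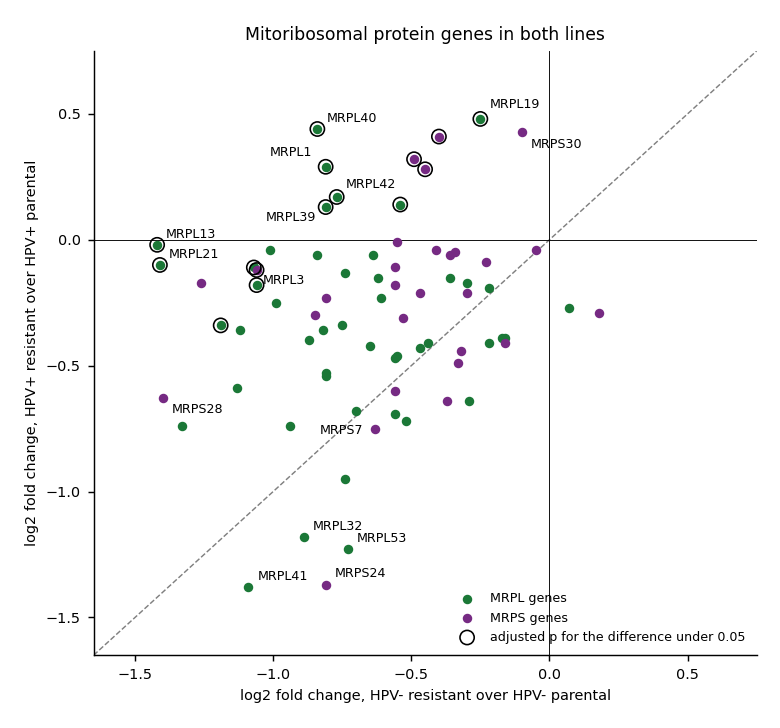
Log2 fold change of each tested member, HPV- resistant over HPV- parental (horizontal axis) against HPV+ resistant over HPV+ parental (vertical axis), with the dashed line marking equal change. Rings mark the 11 MRPL and 4 MRPS genes whose difference had an adjusted p under 0.05 (edgeR), all above the line, with MRPL13 at -1.42 and -0.02 and MRPL40 at -0.84 and 0.44.

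Before selection the lines already differed in these genes. In HPV+ parental cells against HPV- parental cells, 16 of 47 MRPL genes were lower (34.0%) and 3 were higher (6.38%), and 8 of 28 MRPS genes were lower (28.6%) and 3 higher (10.7%), against 30.0% lower and 28.0% higher over all genes tested. The lower shares were thus near those of all genes, and the higher shares were smaller. Beyond a log2 fold change of 1, 6 MRPL and 4 MRPS genes were lower (12.8 and 14.3%) and 1 MRPL gene was higher, against 19.3% and 17.7% of all genes. Medians were -0.32 and -0.23, against 0.00 for all genes. MRPL21 had the widest gap, with 49.7 and 48.5 CPM in HPV+ parental libraries and 541 and 317 CPM in HPV- parental libraries (log2 fold change -3.13, standard error 0.25, adjusted p = 3.43e-06, edgeR). MRPS35, a mitochondria-specific protein of the small subunit, was at 35.7 and 41.7 CPM, against 124 and 144 CPM (-1.79, standard error 0.15, adjusted p = 3.42e-06, edgeR). MRPS31 was at 8.96 and 10.2 CPM, against 33.7 and 33.9 CPM (-1.81, standard error 0.17, adjusted p = 6.85e-06, edgeR). MRPL44, an exit tunnel protein with a fold like that of ribonuclease III, was at 21.5 and 24.2 CPM, against 60.7 and 65.8 CPM (-1.47, standard error 0.15, adjusted p = 1.25e-05, edgeR). For all 4 the parental lines stood far apart. MRPL11, whose bacterial counterpart L11 forms the base of the stalk, was at 85.8 and 79.1 CPM, against 455 and 278 CPM (-2.15, standard error 0.23, adjusted p = 2.89e-05, edgeR). MRPS33 was at 30.8 and 29.4 CPM, against 70.5 and 50.3 CPM (-1.0, standard error 0.17, adjusted p = 0.000597, edgeR). MRPL34 was the highest in the other direction, at 81.9 and 70.5 CPM in HPV+ parental libraries, against 34.7 and 21.8 CPM in HPV- parental libraries (1.43, standard error 0.22, adjusted p = 0.000235, edgeR). MRPL4, whose bacterial counterpart L4 lines the exit tunnel, was at 189 and 162 CPM, against 114 and 78.4 CPM, and MRPL30 at 133 and 123 CPM, against 102 and 82.8 CPM. MRPS16 was at 223 and 202 CPM, against 133 and 116 CPM, MRPS25 at 78.4 and 57.7 CPM, against 44.6 and 36.4 CPM, and MRPS21 at 137 and 117 CPM, against 107 and 64.8 CPM. All these groups were apart, with log2 fold changes of 0.87, 0.47, 0.78, 0.75 and 0.56. The call of MRPS21 was lost in 10 of 17 alternatives and that of MRPL30 in 3. Those of MRPL4 and MRPS25 were lost in 2 each, and that of MRPS16 in 1. This comparison shares the HPV- parental libraries with the HPV- resistance comparison, where MRPL13 had -1.42 and MRPS28 -1.40, beside -1.45 and -1.48 between the parental lines. Without HPV- parental replicate 2, 27 MRPL genes were lower and 1 was higher, and without HPV- parental replicate 1, 5 MRPL genes were higher. Without HPV+ parental replicate 1 or 2, 5 MRPS genes were lower, and without HPV+ parental replicate 1 a single MRPL gene and a single MRPS gene were higher.

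Each member was also set beside the median log2 fold change of up to 30 tested genes around it on its chromosome. Gene copy number was not measured. In the HPV- line all 47 MRPL genes and 27 of 28 MRPS genes lay below their neighbours' median. The median over members of these neighbour medians was 0.00 for MRPL and 0.07 for MRPS genes. As these were small, the count largely follows the sign of the fold changes, negative for 46 MRPL and 27 MRPS genes. Counts of this kind were not made over all genes in any comparison, so they do not show whether the members are unusual. The lowest neighbour median, -0.51, belonged to MRPL13 on chromosome 8, whose own value was -1.42. MRPL47 on chromosome 3 had neighbours at -0.31 and MRPL21 on chromosome 11 at -0.26. MRPL37 fell by 0.55 on the log2 scale beside neighbours at 0.58. MRPS18C, MRPL41 and MRPS23 were farthest below their neighbours together with MRPS28. Their neighbours were at 0.11, 0.15 and 0.18, and those of MRPS28 at -0.18. In the HPV+ line 35 MRPL and 24 MRPS genes lay below their neighbours. There MRPS24 and MRPL32, both on chromosome 7, had neighbours at -0.69 and -0.48, and MRPL28 on chromosome 16 had neighbours at -0.77, below its own -0.64. MRPL53 and MRPL41 had neighbours at 0.01 and -0.07, far above their own values of -1.23 and -1.38. MRPS36, whose product is a subunit of the alpha-ketoglutarate dehydrogenase complex, had neighbours at 0.40. MRPS36 itself was at 17.8 and 17.9 CPM in HPV+ resistant libraries, against 28.3 and 21.9 CPM in HPV+ parental libraries, and did not pass (-0.49, adjusted p = 0.143, edgeR). Between the parental lines the picture differed by locus. MRPL21 and MRPL11 on chromosome 11, at -3.13 and -2.15, had neighbours at -2.89 and -1.88, and MRPL34 on chromosome 19, at 1.43, had neighbours at 1.06. MRPS28, MRPL39 and MRPS31 had values of -1.48, -1.13 and -1.81 beside neighbours at 0.65, 0.94 and -0.05.

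**Figure D5:**
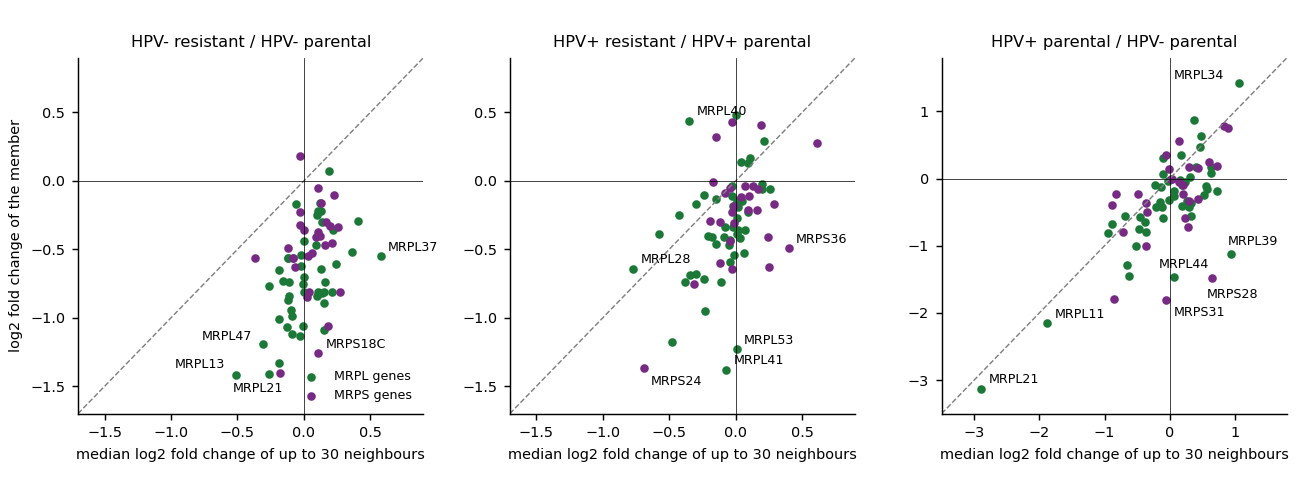
Log2 fold change of each member (vertical axis) against the median of up to 30 tested genes around it on the chromosome (horizontal axis), for the HPV- line (left), the HPV+ line (middle) and the parental lines (right), with the dashed line marking equality. In the HPV- line all 47 MRPL genes lay below the dashed line, a count that was not made over all genes. Between the parental lines MRPL21 and MRPL11 lay near the dashed line, with neighbours at -2.89 and -1.88.

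Messages of these genes are short. The count-weighted transcript length had a median of 1135 bases for MRPL and 1456 bases for MRPS genes, against 2883 bases over all genes tested, and the GC content was 51.2, 46.7 and 48.9%. A smooth trend of the other genes with length, GC content and level was therefore taken off the fold changes, as a description without a test. In the HPV- line the medians were then -0.35 for MRPL and -0.16 for MRPS genes, against 0.02 for all genes. Still negative were 40 of 47 MRPL and 23 of 28 MRPS genes, against 7361 of all 15221 genes. In the HPV+ line the medians were -0.14 and -0.12, against 0.03. There 32 MRPL and 19 MRPS genes were negative, against 7258 of all genes. The trend itself stood at -0.39 for MRPL and -0.25 for MRPS genes in the HPV- line, and at -0.22 and -0.07 in the HPV+ line. A part of each median of about that size was thus shared by other genes of like length, GC content and level. Between the parental lines the medians turned to 0.18 and 0.33, against 0.10 for all genes. MRPL13 stayed at -1.02 in the HPV- line and MRPL53 at -0.79 in the HPV+ line, while MRPL53 in the HPV- line came to -0.04. The part of length, GC content or level in the members' changes was not tested.

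Split by ancestry, 29 MRPL and 18 MRPS genes have a bacterial counterpart and 19 and 10 are specific to mitochondria, a grouping from general knowledge that was added after values had been seen and is given as counts only. In the HPV- line 22 of 29 MRPL genes with a counterpart and 12 of 18 tested without one were lower, with medians of -0.81 and -0.62, and the counts for MRPS genes were 11 of 18 and 3 of 10, with medians of -0.48 and -0.38. In the HPV+ line 5 of 29 and 4 of 18 MRPL genes were lower (medians -0.36 and -0.32), and 4 of 18 and 0 of 10 MRPS genes (medians -0.22 and -0.15). Over all genes 14.1% were lower in the HPV- line and 10.5% in the HPV+ line, and no class was tested against that. Both classes of either subunit thus had negative medians in both lines, and the classes were not tested against each other.

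Other genes of the mitochondrial translation system were counted from lists, to be read against 14.1% of all genes lower in the HPV- line and 10.5% in the HPV+ line. Ranges in this paragraph are over the 8 fits that left out 1 library. Of 5 mitoribosomal proteins with other symbols, 3 were lower in HPV- resistant cells (AURKAIP1 at -0.92, GADD45GIP1 at -0.71 and DAP3 at -0.48, range 0 to 4) and 1, AURKAIP1 at -0.81, in HPV+ resistant cells. PTCD3, a pentatricopeptide protein of the small subunit, had values of 0.04 and 0.06. Of 30 assembly factors tested, 14 were lower and 0 higher in HPV- resistant cells (median -0.45), led by C1QBP, a matrix chaperone, at -1.36 and MTERF3, a factor for ribosomal RNA and subunit maturation, at -1.20. In HPV+ resistant cells 4 were lower and 1 higher (median -0.21), led by RCC1L, which acts on ribosomal RNA pseudouridylation, at -1.02. Of 19 translation factors 7 were lower in the HPV- line, with the RNA-binding protein SLIRP at -1.51, and 2 in the HPV+ line. The list of 22 mitochondrial aminoacyl-tRNA synthetases also held the amidotransferase subunits QRSL1, GATB and GATC. Of these 22 genes 4 were lower in the HPV- line, a count that moved with single libraries, and 1 in the HPV+ line. In both lines the share of this list was near or below that of all genes. So were the HPV+ shares of assembly factors, of translation factors, and of the transcription and RNA processing factors given next. Transcription and RNA processing factors of mitochondria were lower in 5 of 13 cases in HPV- resistant cells, with the tRNA methyltransferase TRMT10C at -1.46 and the tRNA 3' processing enzyme ELAC2 at -1.18, and in 1 of 13 in HPV+ resistant cells. The import machinery had 16 of 27 genes lower in the HPV- line (median -0.64, with the import receptor TOMM70 at -1.25) and 7 of 27 in the HPV+ line (median -0.37, with TOMM7 of the outer membrane pore at -1.40). Without HPV- resistant replicate 1, the HPV- counts were 3 for assembly, 1 for translation factors and 8 for import, the lowest of their ranges, and the highest were 17, 6 and 19. The HPV+ count ranged from 2 to 8 for assembly and from 1, without HPV+ parental replicate 1, to 13, without HPV- parental replicate 1, for import.

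Of 77 cytosolic ribosomal proteins tested in the same libraries, 9 were lower and 0 higher in HPV- resistant cells, with a median log2 fold change of -0.21, against 14.1% lower and 12.8% higher over all genes. In HPV+ resistant cells 3 were lower and 2 higher, with a median of 0.06, and these counts ranged from 0, without HPV+ parental replicate 1, to 7 and 11, without HPV- parental replicate 1. Cytosolic and mitochondrial ribosomal proteins were not tested against each other. Their count in the HPV- line ranged from 5 to 33 over the fits that left out 1 library, 5 being the value without HPV- resistant replicate 1 and 33 that when HPV- parental replicate 2 was left out. Proteins encoded by the mitochondrial genome itself, the products of the mitoribosome, moved the other way at the RNA level, with 10 of 13 higher and 0 lower in HPV- resistant cells (median 1.03), but 1 higher without HPV- resistant replicate 1. In HPV+ resistant cells 0 of 13 passed in either direction in edgeR (median 0.19), and before adjustment 1 was higher and 0 were lower at p under 0.05. Of 10 regulators of nuclear mitochondrial genes tested, 3 were lower in HPV- resistant cells, with the coactivator PPRC1 at -0.74, and in HPV+ resistant cells 1 was lower (the nuclear receptor ESRRA, -1.28) and 2 were higher (YY1 at 0.66 and MYC at 0.62), of which 0 were called without HPV+ parental replicate 1.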

How the data were processed

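Poly(A) libraries of the 4 groups were sequenced, and the authors deposited 1 Salmon quantification per library (GRCh38, per the submitters' processing notes). For Salmon's version, and for its transcript set, nothing is given in the sources used here. Estimated counts and TPM per transcript, with an effective length, were taken as the authors deposited them. Transcripts were matched to GENCODE release 44 (172550 of 187432, 168265 with the same version), and the others, with 4.33 to 5.13% of counts, were left out. Estimated counts were summed per gene and rounded to whole numbers, and TPM were summed per gene. Multi-copy genes depend on how Salmon divided shared reads. For 7 members only part of the transcripts annotated in GENCODE release 44 had values. These were MRPS5 (7 of 15), MRPS12 (1 of 4), MRPS18B (1 of 4), MRPS22 (14 of 25), MRPS25 (7 of 32), MRPS27 (16 of 32) and MRPS36 (3 of 5).

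Genes passing edgeR's default expression filter (15221) were fitted in 1 quasi-likelihood model over all 8 libraries with TMM factors (edgeR 4.0.16, limma 3.58.1, R 4.3.3), with 4 residual degrees of freedom and a common dispersion of 0.0326. Contrasts were each resistant clone against its parental line, the difference of these effects, and HPV+ against HPV- parental cells, with Benjamini-Hochberg adjustment over all genes tested. The trend with length, GC content and level was a smooth fit on the other genes (mgcv 1.9.3), and tables were made in Python 3.11.15. Standard errors are not an output of edgeR's test and were derived as the absolute log2 fold change over the square root of its F statistic. Standard errors and intervals cover only the spread between these libraries.

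Members and lists were chosen with earlier results of these data known, and 1 gene of the naming pattern is not reported here. Values per library are given for up to 4 members per subunit, comparison and direction with the smallest p among those that passed, the 6 with the smallest p for the difference, the 3 highest and 2 lowest in TPM per subunit, and the 3 farthest from their neighbours. Other members are named without a rule, after their values were seen. Replicate numbers were not taken to pair samples. Alternatives were DESeq2 1.42.0, RLE and upper-quartile factors, no filter and a filter of 5 CPM, protein-coding transcripts only, a transcript length offset, the 4 libraries of a line alone, a replicate block, and leaving out each library. Promoter sequences came from RefSeq (GRCh38.p14).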

Additional observations from a re-analysis of the deposited data

Results flagged for a closer look

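The following members had resistance effects that differed between the lines by an interaction test in edgeR (HPV+ minus HPV-, log2 scale). Among MRPL genes the differences were 1.40 for MRPL13, 1.28 for MRPL40, 1.10 for MRPL1, 0.96 for MRPL3, 0.94 for MRPL42 and 0.93 for MRPL39. Among MRPS genes they were 0.73 for MRPS6, 0.81 for MRPS10, 0.82 for MRPS31 and 0.94 for MRPS23. MRPL13 and MRPL40 were called under every one of 16 alternatives, and none of the 4 MRPS genes was.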

How the results depend on the processing

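Over the 8 fits that left out 1 library, lower genes in HPV- resistant cells numbered 16 to 39 for MRPL and 4 to 18 for MRPS, and higher genes 0 for both. In HPV+ resistant cells lower genes numbered 1 to 18 for MRPL and 1 to 8 for MRPS, and higher genes 0 to 2 and 0 to 1. A positive difference between the lines was called for 3 to 22 MRPL and 0 to 10 MRPS genes, and a negative one for 0 MRPL and 0 to 1 MRPS genes. Between the parental lines 11 to 27 MRPL and 5 to 11 MRPS genes were lower, and 1 to 5 and 1 to 3 were higher.

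Fits on the 4 libraries of a line alone called 8 MRPS genes lower in the HPV- line, and in the HPV+ line 25 MRPL and 10 MRPS genes lower and 2 of each higher. Over all genes, the same fits called 1632 of 13830 lower in the HPV- line. In the HPV+ line they called 2877 of 13971 genes lower and 2478 higher, against 1595 and 1164 of 15221 in the fit of all 8 libraries. Upper-quartile factors gave 8 lower MRPS genes in the HPV- line and 2 higher MRPL genes in the HPV+ line, and moved the median of all genes in the HPV- line to 0.12, with 2420 higher and 1789 lower. DESeq2 and the filter of 5 CPM each gave 2 higher MRPL genes in the HPV+ line, and DESeq2 called the difference for 7 MRPS genes. With no filter 0 MRPS genes were higher in the HPV+ line, and with protein-coding transcripts alone 2 were lower and 0 higher. A transcript length offset gave 9 lower MRPS genes in the HPV- line, 0 higher members in the HPV+ line, a difference for 7 MRPL and 1 MRPS genes and 0 higher MRPS genes between the parental lines. With the trend of GC content, length and level taken off, the parental medians turned to 0.18 for MRPL and 0.33 for MRPS genes, and to 0.18 and 0.33 with the replicate block as well. The causes were not tested.

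Deviations of same-numbered libraries correlated at -0.0739 in the HPV- line, -0.015 in the HPV+ line and 0.142 between the parental lines. No source ties the numbers to a shared batch, and with 2 libraries a group the samples share only a number. With a replicate block the HPV- medians were -0.72 and -0.46, 0 MRPL and 0 MRPS genes were higher in the HPV+ line, and the difference was called for 2 MRPS genes. Among values of named members, 77 lost their call with 1 library left out and 283 did not, 28 did and 367 did not under the other settings, and 0 changed sign.

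Depth was 20250246 to 27341284 read pairs per library. MRPL45 did not pass the filter. With 2 libraries per group, 1 clone per line and 1 line per HPV status, the p-values cover only the spread between these libraries.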

Other observations

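The share of a member's reads on protein-coding transcripts had a median of 98.7% in HPV- resistant and 98.4% in HPV- parental cells, and of 97.5% in HPV+ resistant and 97.8% in HPV+ parental cells. MRPS5, the counterpart of bacterial S5, was a member with low shares, 43.3% in HPV- resistant against 55.6% in HPV- parental cells and 39.2% in HPV+ resistant against 50.3% in HPV+ parental cells. For MRPS30 the share was 66.0% in HPV- resistant cells, against 78.9% in HPV- parental cells. In HPV+ resistant cells the MRPS5 transcript with most reads, 42.9%, was annotated as subject to nonsense-mediated decay. These shares were not tested, and those of MRPS5 rest on 7 of its 15 annotated transcripts.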
